A study of Mus musculus with 40 samples.

Results

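The comparison described here is that of 4 retinas given anti-ANG2 with 4 retinas given control IgG, all from mice with oxygen-induced retinopathy (OIR) at postnatal day 17. The 8 libraries were chosen by their titles from 40 retina libraries, and every gene that could be tested was read, 23495 of the 42037 symbols in the count table. The study sequenced RNA of whole retinas, 1 retina per library, in 10 groups of 4 at days 17 and 19 (P17 and P19). Retinas of both groups compared came from C57BL/6J pups that had breathed 75% oxygen between P7 and P12 and were then returned to room air. At P14 each eye received 1 µl: the anti-ANG2 antibody LC10 at 0.2 µg/µl in one group and control IgG at 0.4 µg/µl in the other, so the amount of protein differed along with its target. Further retinas used for comparison were given an anti-VEGFA antibody (B20.4.1, 0.2 µg/µl) or, at 0.4 µg/µl, a bispecific antibody that binds VEGFA as well as ANG2, or came from mice without OIR (nOIR), whose labels do not state an injection. Whether any 2 retinas share a mouse or a litter is not in the labels, so p-values measure the spread between these retinas.

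In OIR, high oxygen stops and prunes the growing capillaries of the central retina. Back in room air the uncovered retina is hypoxic, and abnormal vessel tufts grow towards the vitreous before the vascular bed repairs itself. ANG2, encoded by Angpt2 and made mainly by sprouting endothelial cells, competes with ANG1 for the endothelial receptor tyrosine kinase TIE2 (gene Tek) and mostly lowers its signal, which loosens contacts between endothelial cells and pericytes. An antibody to ANG2 takes the ligand away from the receptor, and its own target RNA need not change.

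Libraries of the anti-ANG2 group held 13200000 to 17400000 expected counts, against 16500000 to 25800000 in the IgG group. Levels are in counts per library scaled to a fixed size (CPM). Retina identity was clear, since the 18 rod photoreceptor genes had a mean log2 CPM of 10.76 to 11.01 in anti-ANG2 retinas and 10.9 to 11.16 in IgG retinas. Other properties were not balanced between the groups. Xist, the RNA of the inactive X, was at 629 to 764 CPM in all 4 anti-ANG2 retinas with no Y-linked counts, whereas IgG replicates 1 and 2 had no Xist counts and carried Y-linked RNA. IgG replicate 3 carried 388 CPM of Xist along with 11.7 CPM of Y-linked RNA, and replicate 4 carried 377 and 0.61 CPM. Sex and antibody therefore cannot be fully told apart. Counts on noncoding genes made up 1.89 to 2.34% of the anti-ANG2 libraries and 1.22 to 1.54% of the IgG libraries, with no overlap, and 1.66 to 2.45% of nOIR libraries. Crystallin RNA of the lens was uneven within both groups: Cryaa reached 2260 CPM in anti-ANG2 replicate 2 and 1380 CPM in IgG replicate 4.

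No gene passed the test between anti-ANG2 and IgG retinas at P17. With edgeR's quasi-likelihood model over all 40 libraries and Benjamini-Hochberg adjustment, 0 of 23495 genes (0%) had an adjusted p under 0.05, and the smallest adjusted p was 0.44. At an unadjusted p under 0.05 there were 1795 genes (7.64%), 1127 higher with anti-ANG2 (4.8%) and 668 lower (2.84%). All 4 anti-ANG2 retinas lay above all 4 IgG retinas for 1126 genes (4.79%), and below them for 997 (4.24%), together 2123 genes (9.04%). The median log2 fold change of all genes was 0.02. DESeq2 called 16 genes, among them the Y-linked Ddx3y, Uty, Kdm5d and Eif2s3y, of which no anti-ANG2 retina held counts. Limma-voom called 79, and the fit to the 8 libraries alone called 305. All values below are therefore descriptions of estimates that missed the threshold, except where a call by that narrower fit is named.

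The angiopoietin pathway comes first, since it holds the antibody's target. Angpt2 (GRCm38 chromosome 8, 18690263 to 18741562, minus strand) had 11.6, 5.92, 6.29 and 10.8 CPM in anti-ANG2 retinas, against 12.7, 10.2, 13.5 and 19.5 CPM in IgG retinas. The groups overlapped between 10.2 and 11.6 CPM, and anti-ANG2 replicates 2 and 3 were near the nOIR mean of 5.37 ± 0.679 CPM (SD, n = 4). Its fold was 0.621, with a 95% interval of 0.36 to 1.07 (edgeR, adjusted p = 0.69). In the separate retinas of P19 the log2 fold change of Angpt2 was −1.16, against −0.69 at P17, and the test of the difference between ages gave an unadjusted p = 0.4 by edgeR. Angpt1, the agonist ligand made by mural cells, averaged 1.72 ± 0.263 CPM with anti-ANG2 and 1.58 ± 0.904 CPM with IgG.

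Both receptors were close to the limit of what these libraries could measure. Tek had 4.3, 0.521, 2.54 and 0 CPM with anti-ANG2 and 1.84, 0.403, 0.585 and 2.44 CPM with IgG. Tie1, the orphan co-receptor, averaged 1.13 ± 1.04 CPM with anti-ANG2 and 1.16 ± 0.739 CPM with IgG. The retinas overlapped widely for both genes, and the interval for the Tek fold, 0.187 to 10.6, left even large differences undetectable at this depth. Ptprb, the endothelial phosphatase VE-PTP that removes phosphate from TIE2, had 3.02, 1.95, 1.34 and 1.62 CPM with anti-ANG2 and 4.11, 5.36, 1.89 and 4.27 CPM with IgG. Only IgG replicate 3 lay inside the anti-ANG2 range, and the fold was 0.51 (interval 0.255 to 1.02, edgeR adjusted p = 0.66). Of 11 tested genes of the angiopoietin and TIE pathway, 8 had a negative and 3 a positive estimate, with a median log2 fold change of −0.2 and none at an unadjusted p under 0.05. Among them were Foxo1, the transcription factor that drives Angpt2 when TIE2 signalling is low (−0.26), and Tnip2, an NF-kappaB inhibitor bound to TIE2 (−0.32).

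**Figure D1:**
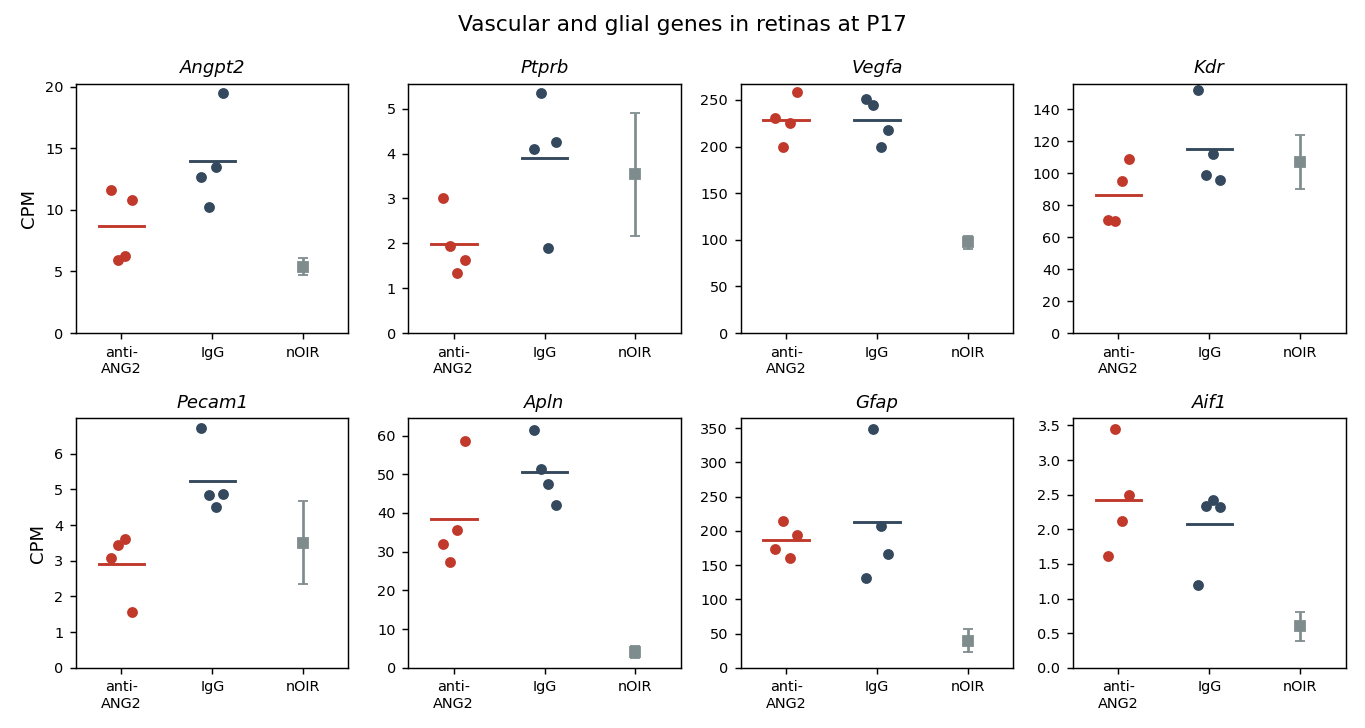
Levels of 8 vascular and glial genes in P17 retinas, in CPM on linear axes from 0. Points are single retinas with a bar at the group mean for anti-ANG2 and IgG, and the square with its bars is the nOIR mean ± SD (n = 4). Vegfa shows equal means of 228 CPM with anti-ANG2 and with IgG, and Pecam1 is the only panel in which the anti-ANG2 retinas (1.55 to 3.61 CPM) and the IgG retinas (4.5 to 6.73 CPM) do not overlap.

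The other vascular axis, VEGF, did not separate the groups. Vegfa, the hypoxia-induced growth factor of endothelium (chromosome 17, 46016993 to 46032369, minus strand), had 231, 199, 225 and 259 CPM with anti-ANG2 and 251, 244, 199 and 218 CPM with IgG. The ranges coincided, and the 95% interval of the fold ran from 0.761 to 1.32. Kdr, the main VEGF receptor, had 71, 70.2, 94.9 and 109 CPM with anti-ANG2 and 152, 99.1, 112 and 95.8 CPM with IgG (fold 0.751, interval 0.55 to 1.03). Kdr had its 2 lowest values in anti-ANG2 replicates 1 and 2 and its highest in IgG replicate 1, and the remaining retinas overlapped. Flt1, the decoy-like VEGF receptor, averaged 36.8 ± 5.26 CPM with anti-ANG2 and 39.1 ± 8.3 CPM with IgG. Pgf, placental growth factor, lay at 1.96 to 2.86 CPM in anti-ANG2 retinas and 3.19 to 6.24 CPM in IgG retinas, without overlap but at low counts (fold 0.602, interval 0.249 to 1.45).

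Genes of vessel cells gave small estimates of either sign. The 24 endothelial genes had a median log2 fold change of −0.03, with 10 positive, 14 negative and none at an unadjusted p under 0.05. Pecam1, the endothelial adhesion molecule CD31, was the member without overlap: 3.07, 3.45, 3.61 and 1.55 CPM with anti-ANG2, against 6.73, 4.83, 4.5 and 4.88 CPM with IgG and 3.51 ± 1.15 CPM in nOIR. Its fold was 0.558 with an interval of 0.277 to 1.13 (edgeR, unadjusted p = 0.1, adjusted p = 0.71). In whole-retina RNA, fewer cells of a type and less RNA per cell cannot be told apart.

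Apln, the apelin peptide of tip cells that lead vessel sprouts, had 32.1, 27.3, 35.7 and 58.7 CPM with anti-ANG2 and 61.5, 51.4, 47.4 and 42.1 CPM with IgG. Anti-ANG2 replicate 4 stood among the highest of the 8 retinas, the other 3 were lowest, and all were far above nOIR at 4.09 ± 1.52 CPM. Esm1, endocan, another tip cell product, was at or under 1.27 CPM in all 8 retinas. Of 20 genes of tip cells and new vessels, Adm and the intermediate filament gene Vim were lower and the basement membrane collagen Col4a2 was higher at an unadjusted p under 0.05, around a list median of −0.22. The 18 genes of the blood-retina barrier had a median of −0.27 and none at that level. Plvap, the fenestration protein of leaky vessels, averaged 4.91 ± 1.61 CPM with anti-ANG2 and 6.12 ± 1.42 CPM with IgG, and Slc2a1, the glucose transporter GLUT1, 306 ± 38.4 and 394 ± 36.5 CPM in the same order. Pericyte and smooth muscle genes (16) had a median of 0.18, with Ndufa4l2, also induced by low oxygen, at 59.5 ± 6.63 CPM with anti-ANG2 and 80.3 ± 12 CPM with IgG.

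**Figure D2:**
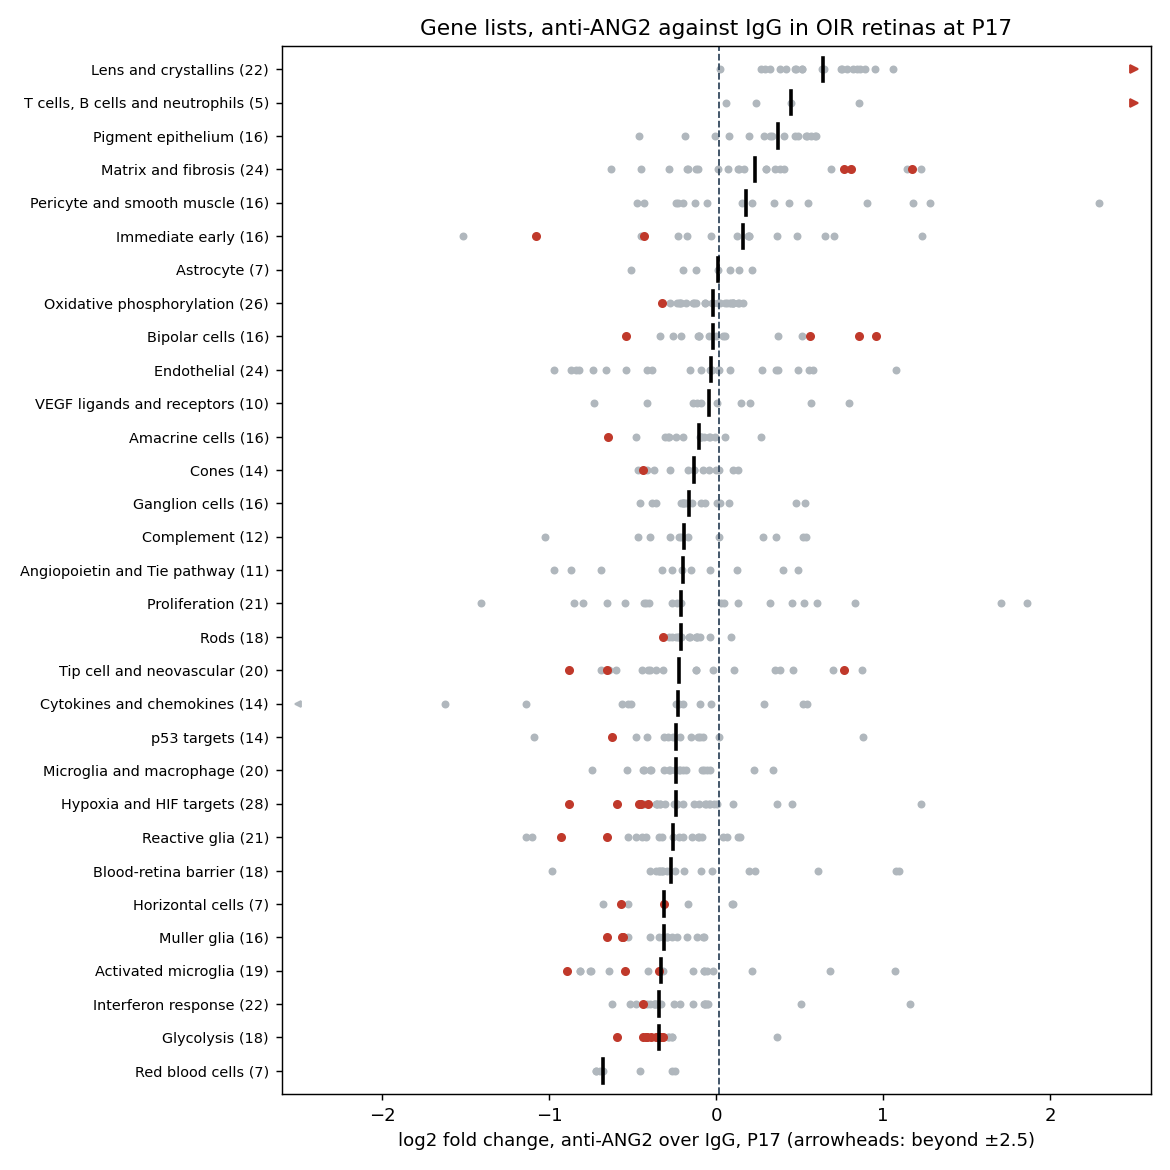
Log2 fold change of anti-ANG2 over IgG at P17 for each tested member of 31 gene lists (number tested in brackets), ordered by the list median (black bar). Red points have an unadjusted p under 0.05, the dashed line is the median of all genes at 0.02, and 3 members beyond ±2.5 are drawn as arrowheads at the edge. The glycolysis points form a tight group below 0 apart from Pfkp, and the lens list lies entirely above 0.

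Across the 31 lists the median was below 0 in 24 and above 0 in 7. That split has to be read beside the level of the genes, because well-expressed genes as a whole had negative estimates. All tested genes with a mean of 100 to 1000 CPM over the 8 retinas (1785 genes) had a median log2 fold change of −0.17, and the 77 genes over 1000 CPM one of −0.21. In those classes 82.7% and 83.1% of estimates were negative, against 48.7% of all genes. Genes under 1 CPM had a median of 0.38. Summing up each list as the mean log2 CPM of its members, all 4 anti-ANG2 retinas lay below all 4 IgG retinas for 1 list, glycolysis, and above them for 1 list, matrix and fibrosis.

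Glycolysis was the list in which single members most often separated the retinas. This is the pathway that splits glucose into lactate, on which photoreceptors and Müller glia rely even with oxygen present, and hypoxia induces most of its genes through the factor HIF1. Of 18 genes, 17 had a negative estimate (median log2 fold change −0.34), 9 were lower at an unadjusted p under 0.05 where 2.84% of all genes were, and in 13 all 4 anti-ANG2 retinas lay below all 4 IgG retinas where 4.24% of all genes did. None passed over all genes in the fit to 40 libraries. Among all genes of 100 to 1000 CPM the 2 shares were 11.3% and 23.8%, and over 1000 CPM 15.6% and 26%. The mean log2 CPM of the list ran from 9.6 to 9.73 in anti-ANG2 retinas, from 9.91 to 10.08 in IgG retinas and from 9.26 to 9.65 in nOIR retinas.

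Gapdh, the glyceraldehyde phosphate dehydrogenase, had 5940, 6220, 5710 and 6140 CPM with anti-ANG2, against 7270, 8520, 8200 and 8180 CPM with IgG. The groups were far apart relative to their spread, and the nOIR mean was 5340 ± 1150 CPM. Its fold was 0.747 (interval 0.596 to 0.936), with edgeR adjusted p = 0.55 in the fit to 40 libraries and adjusted p = 0.0073 in the fit to 8, and 1 of 22 other settings called it. Eno1, enolase 1, had 5970, 6340, 6450 and 6700 CPM with anti-ANG2 and 7880, 8450, 8870 and 8730 CPM with IgG (fold 0.751, interval 0.606 to 0.93). Slc16a3, the lactate exporter MCT4, had 62.3, 59.6, 59.4 and 67 CPM with anti-ANG2 and 84.4, 111, 78.9 and 101 CPM with IgG. The fold of Slc16a3 was 0.661 (interval 0.511 to 0.855), and its nOIR mean was 38.1 ± 2.87 CPM. The phosphoglycerate mutase Pgam1 (1200 ± 71.5 CPM with anti-ANG2, 1630 ± 113 CPM with IgG), the triose phosphate isomerase Tpi1 (fold 0.763) and the pyruvate kinase Pkm (fold 0.803) stood likewise without overlap. These 6 were the glycolysis genes called lower in the fit to the 8 libraries, a fit in which 0.313% of all genes were called lower. With the noncoding share of each library as a covariate in the fit to 40, the log2 fold change shrank to −0.11 for Gapdh, −0.09 for Eno1, −0.09 for Pgam1, −0.06 for Tpi1, −0.05 for Pkm and −0.32 for Slc16a3.

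Not every step followed. Pfkp, the platelet-type phosphofructokinase, was the exception in sign, with 1220, 923, 976 and 1030 CPM with anti-ANG2 and 816, 983, 695 and 719 CPM with IgG. Ldha, the lactate dehydrogenase subunit of lactate producers, overlapped between groups at 3900 to 4640 CPM with anti-ANG2 and 4450 to 5780 CPM with IgG. The hexokinase Hk2 averaged 36.9 ± 2.46 and 47.2 ± 10.7 CPM in the same order, and IgG replicate 3 at 31.3 CPM was the lowest of all 8. At P19, in other retinas, the glycolysis list had a median of 0.14 with none lower at an unadjusted p under 0.05, and the difference between ages had edgeR unadjusted p = 0.0032 for Gapdh, 0.0058 for Pgam1, 0.013 for Eno1 and 0.37 for Slc16a3, none of which passed adjustment over all genes.

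**Figure D3:**
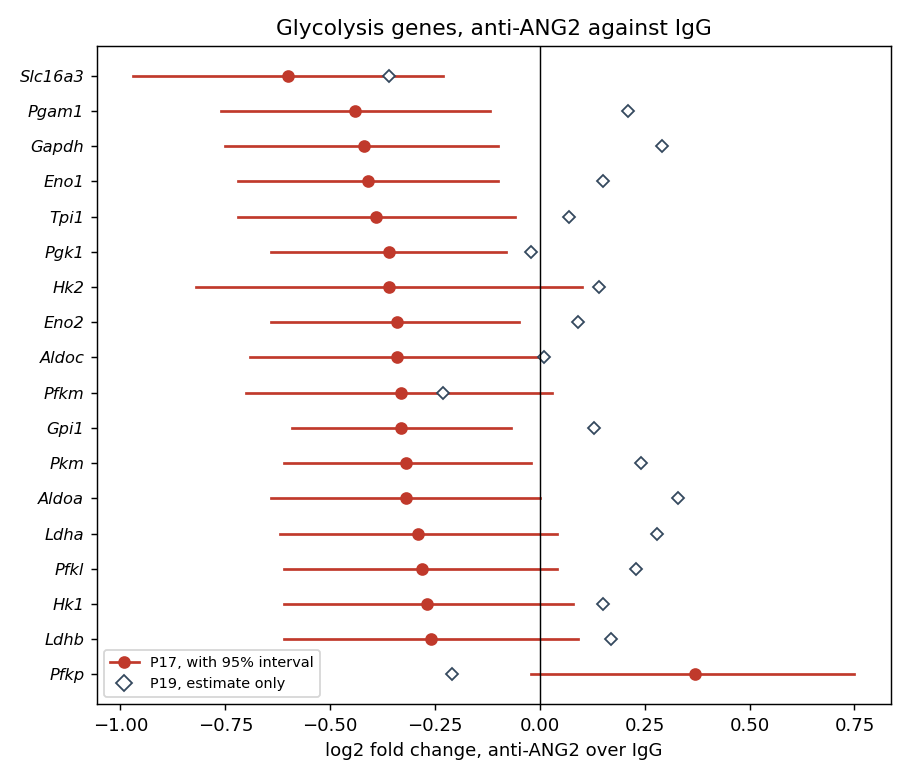
Log2 fold change of anti-ANG2 over IgG for the 18 glycolysis genes. Filled points with lines are the P17 estimates and their 95% intervals, and open diamonds are the P19 estimates from other retinas, without interval. At P17 all but Pfkp (0.37) lie below 0, the lowest being Slc16a3 at −0.6, and at P19 most lie above 0.

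The wider list of hypoxia and HIF targets, which shares Slc16a3 and Hk2 with glycolysis, had 23 negative estimates of 28 and a median log2 fold change of −0.24. Lower at an unadjusted p under 0.05 were 5 members, named here after their values were seen: Slc16a3, Mxi1, Bnip3, Adm and Egln1. The share of all genes lower at that p was 2.84%, and 11.3% at 100 to 1000 CPM. Adm, the vasodilator adrenomedullin, had 10.1, 20.2, 17.3 and 21.5 CPM with anti-ANG2 and 23.1, 37.1, 27.3 and 39.5 CPM with IgG. All 4 anti-ANG2 values were below the IgG values and far above the nOIR mean of 1.54 ± 0.834 CPM. The fold of Adm was 0.544 (interval 0.31 to 0.954, edgeR unadjusted p = 0.034, adjusted p = 0.62). Bnip3, a receptor that marks mitochondria for removal, had 569, 571, 477 and 594 CPM with anti-ANG2 and 584, 943, 730 and 765 CPM with IgG, where IgG replicate 1 reached into the anti-ANG2 range. Mxi1, a MYC antagonist, had fold 0.726, and Egln1, the oxygen-sensing prolyl hydroxylase PHD2, had fold 0.755 with 108 ± 6.47 CPM with anti-ANG2 and 143 ± 24.8 CPM with IgG. Over 22 other settings the log2 fold change of Egln1 ran from −0.51 to 0.03, so its sign was not kept. It ran from −0.56 to −0.14 for Bnip3 and from −0.56 to −0.17 for Mxi1. For Adm the range was −1.01 to −0.42 and for Slc16a3 −0.67 to −0.32. Vegfa, in the same list, stood at fold 1.

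HIF binds the core letters ACGTG or GCGTG, so the 250 bases before the RefSeq start of 4 of these 5 genes are shown (GRCm38.p6, each read 5′ to 3′ on the gene's strand). Capitals mark ACGTG or GCGTG on either strand, which reads CACGT or CACGC on the other.
Slc16a3, chr11:120948817-120949066, plus strand: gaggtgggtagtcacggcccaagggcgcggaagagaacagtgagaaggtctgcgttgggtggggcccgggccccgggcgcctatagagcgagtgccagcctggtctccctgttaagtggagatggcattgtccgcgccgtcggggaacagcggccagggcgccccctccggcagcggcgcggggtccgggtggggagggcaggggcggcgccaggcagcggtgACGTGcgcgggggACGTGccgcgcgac
Bnip3, chr7:138909507-138909756, minus strand: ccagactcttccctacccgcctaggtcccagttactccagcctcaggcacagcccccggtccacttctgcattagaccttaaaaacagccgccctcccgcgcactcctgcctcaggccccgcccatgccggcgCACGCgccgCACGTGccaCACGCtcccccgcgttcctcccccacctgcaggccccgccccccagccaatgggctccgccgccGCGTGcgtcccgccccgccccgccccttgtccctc
Adm, chr7:110627407-110627656, plus strand: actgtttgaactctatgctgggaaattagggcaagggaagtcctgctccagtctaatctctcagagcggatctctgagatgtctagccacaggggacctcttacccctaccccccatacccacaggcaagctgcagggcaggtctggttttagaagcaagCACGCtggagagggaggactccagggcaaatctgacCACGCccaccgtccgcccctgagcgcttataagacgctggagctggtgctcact
Egln1, chr8:124949255-124949504, minus strand: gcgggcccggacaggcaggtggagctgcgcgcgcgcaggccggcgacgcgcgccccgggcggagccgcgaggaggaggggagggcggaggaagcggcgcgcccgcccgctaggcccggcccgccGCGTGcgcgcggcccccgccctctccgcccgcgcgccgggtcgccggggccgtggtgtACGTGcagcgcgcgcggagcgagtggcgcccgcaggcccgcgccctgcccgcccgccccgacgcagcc
Slc16a3 held ACGTG at 2 places. Bnip3 held 3 GCGTG matches and the palindrome CACGTG, which counts as ACGTG on both strands. Adm held 2 GCGTG matches, and Egln1 held 1 of each. Of 32851 RefSeq promoters of the same length, 16.6% held ACGTG, 28.2% held GCGTG and 38.6% held either, so a match is a description of these letters and no sign of binding.

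Genes of inflammation mostly had negative estimates, and few separated the retinas. Of 20 microglia and macrophage genes 18 had a negative estimate (median −0.24), none at an unadjusted p under 0.05. C1qa, a chain of the complement starter C1q made by microglia, had 23.3, 48.6, 26.2 and 39.3 CPM with anti-ANG2 and 37.6, 50.6, 41.8 and 50.3 CPM with IgG, with overlap through anti-ANG2 replicates 2 and 4. Aif1, the microglial protein IBA1, leaned the other way at 2.42 ± 0.773 CPM with anti-ANG2 and 2.07 ± 0.583 CPM with IgG. Of 19 genes of activated microglia, Trem2, Cd9 and Ctsb were lower at an unadjusted p under 0.05 (2.84% of all genes), and 3 did not overlap between groups, Cd9 and the lysosomal protease Ctsb among them (4.24% of all genes). Trem2, a lipid receptor that microglia need to enter their phagocytic state, had 8.11, 16.2, 6.72 and 7.15 CPM with anti-ANG2 and 11.8, 20.3, 22.3 and 16.6 CPM with IgG. Anti-ANG2 replicate 2 stood apart from its group and inside the IgG range, and the fold was 0.538 (interval 0.346 to 0.836, edgeR adjusted p = 0.52). Its P19 log2 fold change was 0.41, and the difference between ages had an unadjusted p = 0.0053.

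The tetraspanin Cd9 did not overlap, at 160 to 238 CPM with anti-ANG2 and 243 to 390 CPM with IgG. Complement (12 genes, median −0.19), cytokines and chemokines (14, −0.23) and interferon response (22, −0.34) held 1 gene at an unadjusted p under 0.05 between them, the class I histocompatibility gene H2-D1 (29.3 ± 1.84 CPM with anti-ANG2, 39.7 ± 11.3 CPM with IgG). Ccl2, the monocyte attractant, was at or under 1.61 CPM in all 8 retinas, and the interval of its fold ran from 0.044 to 2.4. IgG replicate 2 carried the highest IgG value for many of these genes: H2-K1 was at 42.4 CPM there and 22 to 26.5 CPM in the other IgG retinas, and the stress-induced factor Cebpd at 111 CPM against 21.6 to 28 CPM. Without that retina the log2 fold change of Cebpd was −0.07.

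Reactive glia (21 genes) had a median of −0.26, with 2 lower at an unadjusted p under 0.05, Vim and Cebpd (2.84% of all genes). The Cebpd estimate depended on IgG replicate 2, as given above. Gfap, the filament protein that Müller glia switch on under stress, had 174, 215, 160 and 194 CPM with anti-ANG2 and 131, 348, 207 and 166 CPM with IgG. The spread of the IgG retinas covered all anti-ANG2 values, and both groups stood above nOIR at 39.8 ± 16.2 CPM. Vim, the other glial intermediate filament, did not overlap, with 108, 143, 119 and 139 CPM with anti-ANG2 and 186, 256, 191 and 167 CPM with IgG. The nOIR mean of Vim was 105 ± 34.2 CPM, its fold was 0.637 (interval 0.453 to 0.895), and edgeR gave adjusted p = 0.55 over 40 libraries and 0.026 over 8. With the noncoding share as a covariate the log2 fold change of Vim was −0.2. All 16 Müller glia genes had negative estimates (median −0.31), 3 of them at an unadjusted p under 0.05: Vim, the glutamate transporter Slc1a3 (fold 0.676) and the crystallin-like Crym (fold 0.68). Of all genes 2.84% were lower at that p, and at 100 to 1000 CPM 82.7% of estimates were negative. At P19 the Müller list had a median of −0.32, with 6 lower at that p, where 5.86% of all genes were. Slc1a3 overlapped, since anti-ANG2 replicates 3 and 4 (312 and 297 CPM) exceeded IgG replicate 4 (289 CPM), and at P19 its log2 fold change was −0.74.

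Rods (18 genes, median −0.21) and cones (14, −0.13) held 1 gene each at an unadjusted p under 0.05, the sodium and calcium exchanger Slc24a1 (fold 0.803) and the thyroid hormone receptor Thrb (fold 0.738). At P17 2.84% of all genes were lower at that p, with 11.3% at 100 to 1000 CPM and 15.6% over 1000 CPM. At P19 the rod list had a median of 0.51, where all genes over 1000 CPM had one of 0.32 and those of 100 to 1000 CPM one of 0.04. Of its 18 genes 15 were higher at P19 at an unadjusted p under 0.05, where 6.64% of all genes were. Amacrine (16 genes, −0.1) and ganglion cell genes (16, −0.16) held 1 gene and 0 genes at that level, with Slc18a3, the vesicular transporter of cholinergic amacrine cells, at fold 0.638. The 7 horizontal cell genes had a median of −0.31, with 5 negative and 2 positive estimates. Their mean log2 CPM overlapped, at 4.84 to 5.03 with anti-ANG2 and 4.97 to 5.33 with IgG. Lower at an unadjusted p under 0.05 were 2 of them, Calb1 and Ndrg1 (fold 0.804), where 2.84% of all genes were. The calcium buffer Calb1 had 160, 143, 179 and 166 CPM with anti-ANG2 and 250, 237, 265 and 212 CPM with IgG. The groups stood clearly apart, the nOIR mean was 171 ± 46 CPM, and Calb1 (fold 0.673) was called in the fit to 8 libraries (edgeR adjusted p = 0.013) but not to 40 (0.52). With the noncoding share as a covariate in the fit to 40 its log2 fold change was −0.22.

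Bipolar cell genes had a median of −0.02 over 16 genes, 7 positive and 9 negative. Gpr179, Grm6 and Lrit3, which belong to the glutamate signalling complex of ON bipolar cells, were higher at an unadjusted p under 0.05. Gpr179 had 110, 83, 124 and 82.8 CPM with anti-ANG2 and 57.7, 43.4, 47.4 and 56.8 CPM with IgG. Grm6, the metabotropic receptor mGluR6, had 146, 109, 148 and 122 CPM with anti-ANG2 and 106, 77, 93.2 and 80.6 CPM with IgG. Both were without overlap and both anti-ANG2 means, 99.7 and 131 CPM, stood beside nOIR means of 104 and 136 CPM. The fold was 1.94 for Gpr179 and 1.47 for Grm6, and each was called higher in the fit to 8 libraries (edgeR adjusted p = 0.0044 and 0.038). With the noncoding share as a covariate the log2 fold change was 0.19 for Gpr179 and 0.09 for Grm6. At P19 the bipolar list had a median of −0.59, Gpr179 a log2 fold change of −0.55 and Grm6 one of −0.91.

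Matrix and fibrosis was the list whose level was higher with anti-ANG2, at a mean log2 CPM of 3.71 to 3.84, against 3.42 to 3.6 with IgG and 3.12 to 3.4 in nOIR. Of its 24 genes 17 had positive estimates (median 0.23), and Col6a1, Col4a2 and Mmp2 were higher at an unadjusted p under 0.05 (4.8% of all genes). All genes of 1 to 10 CPM had a median of 0.17, with 38.1% of estimates negative and 4.65% higher at that p. For those of 10 to 100 CPM the median was −0.05, with 58.1% negative and 5.81% higher. At P19 the list had a median of −0.38, with 3 lower and 0 higher at that p, where 5.86% and 6.64% of all genes were. Col6a1, a chain of the microfibrillar collagen VI, had 130, 93.1, 73.9 and 84.4 CPM with anti-ANG2 and 47, 45.3, 33.1 and 43.5 CPM with IgG. The groups did not overlap, the fold was 2.26 (interval 1.16 to 4.41), and edgeR gave adjusted p = 0.58 over 40 libraries and 0.0021 over 8. With the noncoding share as a covariate its log2 fold change was 0.29, against 1.17 without. Col4a2 had 34.6, 18.2, 22.7 and 20 CPM with anti-ANG2 and 16, 12.2, 12.6 and 15.4 CPM with IgG (fold 1.7, interval 1.01 to 2.85).

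The remaining lists gave few genes at that level. Oxidative phosphorylation (26 genes) had a median of −0.02 at P17 and 0.57 at P19. At P19 20 members were higher at an unadjusted p under 0.05, where 6.64% of all genes were. Proliferation (21 genes, −0.21), p53 targets (14, −0.24) and immediate early genes (16, 0.16) held 0, 1 and 2 genes at that level, among them Cdkn1a, the p53-induced cell cycle inhibitor (fold 0.648), and Jund, a subunit of AP-1 (41 to 48.5 CPM with anti-ANG2, 56.7 to 63.9 CPM with IgG). Pigment epithelium genes, which mark tissue adhering to the retina, had a median of 0.37 over 16 genes and mean log2 CPM of 4.81 to 5.03 with anti-ANG2 and 4.36 to 5 with IgG. Lens and crystallin genes were all positive (22 genes, median 0.64), with list levels of −0.06 to 6.62 with anti-ANG2 and 0.37 to 5.97 with IgG. Red blood cell genes had a median of −0.68 with overlapping levels. Of the T cell, B cell and neutrophil list 5 of 14 genes could be tested in all, among them the T cell coreceptor Cd8a (2.79 ± 1.87 CPM with anti-ANG2, 2.05 ± 0.616 CPM with IgG). The part that adhering tissue, lens or blood plays in the other lists was not tested beyond the fits with pigment epithelium and lens levels as covariates.

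The genes of smallest p over all 40 libraries are given here for symbols other than gene models and copies, with at least 5 CPM in the higher group; the smallest p of all, 2.7e-05, belonged to the gene model Gm15384. Pet100, a small mitochondrial protein needed to assemble cytochrome c oxidase (chromosome 8, 3621548 to 3625848, plus strand), had 144, 132, 125 and 110 CPM with anti-ANG2 and 52.4, 57.8, 58.1 and 67.4 CPM with IgG. Its lowest anti-ANG2 retina was well above its highest IgG retina, and nOIR stood between at 78.9 ± 12.7 CPM. The fold was 2.17 (interval 1.52 to 3.1), the edgeR adjusted p was 0.44, and 5 of 22 other settings called it, with adjusted p from 3e-04 to 1. Bbs10, a chaperonin-like gene of the Bardet-Biedl ciliopathy, had 14.6, 18, 14.1 and 15.9 CPM with anti-ANG2 and 34.3, 22.9, 31.7 and 28.5 CPM with IgG. Its nOIR mean of 19.6 ± 1.1 CPM was nearer the anti-ANG2 mean of 15.6, and the fold was 0.533 (interval 0.395 to 0.72, adjusted p = 0.44). Higher by the same rule were Nr6a1os, Abhd14b, Tenm2, Ccnl2, Sec61a2, Ryr3 and Izumo4, with folds of 1.49 to 2.85. Lower were Fam131b, Txnrd1, Mxd1, Syt5, Acbd3, Fancf and Rab18, with Fam131b at fold 0.432, Syt5, a synaptotagmin, at 0.592 and the thioredoxin reductase Txnrd1 at 0.63.

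The fit to the 8 libraries alone called 305 of 18537 genes (1.65%), 247 higher (1.33%) and 58 lower (0.313%). Its common coefficient of biological variation was 0.347, against 0.516 over all 40 libraries. Among the 247 higher genes 34% were gene models without a proper symbol, against 18.9% of the genes tested, and 11.7% were annotated as noncoding, against 7.21%. Among the 58 lower genes there was no such model, and 57 were protein-coding. The count was 79, 152 and 109 without anti-ANG2 replicates 1, 2 and 3, and 110, 147 and 170 without IgG replicates 2, 3 and 4. It was 221 without anti-ANG2 replicate 4 and 366 without IgG replicate 1. It was 90 with only the retinas that carried Xist, 82 without the 2 retinas highest in crystallins, and 1 with either the noncoding share or the Y-linked counts as a covariate. Y-linked RNA was at 0 CPM in all anti-ANG2 retinas and at 0.61 to 215 CPM in IgG retinas. Neither covariate overlapped between the groups, so within the 8 libraries neither can be told apart from the antibody.

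Several of the higher calls were long noncoding RNAs that stay in the nucleus. Kcnq1ot1, the imprinted antisense RNA that silences its neighbours (chromosome 7, 143203458 to 143296549, minus strand), had 259, 226, 216 and 190 CPM with anti-ANG2 and 110, 97.7, 115 and 106 CPM with IgG. The nOIR mean of Kcnq1ot1, 175 ± 26 CPM, lay between the 2 groups. Meg3, another imprinted RNA, had 521, 378, 343 and 293 CPM with anti-ANG2 and 158, 170, 170 and 181 CPM with IgG, and is listed a second time in the table with identical counts. Both groups of values were far apart, with anti-ANG2 replicate 1 the highest in each case, and the fits gave folds of 2.1 and 2.29 with edgeR adjusted p of 0.00026 and 7e-04. With the noncoding share as a covariate in the fit to 40, the log2 fold change was 0.23 for Kcnq1ot1 and 0.3 for Meg3. Both RNAs are themselves counted in that share, so a smaller estimate is partly built into this fit. Malat1, a nuclear RNA of most cells, was called with a log2 fold change of 0.72, Snhg20 with 0.84 and Snhg11 with 1.06. Coding genes among the calls included synaptic adhesion genes that span long stretches of genome: Nrxn3 (649, 526, 549 and 496 CPM with anti-ANG2, against 316, 246, 291 and 248 with IgG), Ptprd (241 ± 16.1 against 138 ± 19.7 CPM), Pcdh9 (437 ± 77.1 against 225 ± 28.7 CPM) and Tenm2 (69.3 ± 11 against 31.9 ± 5.22 CPM). Luc7l3, a factor of the U1 splicing particle, averaged 263 ± 28.7 CPM with anti-ANG2 and 160 ± 8.86 CPM with IgG.

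The lower calls included abundant transcripts of metabolism and the cytoskeleton. Beside the 6 glycolysis genes they held Ckb, the brain creatine kinase (2270 ± 161 CPM with anti-ANG2, 2920 ± 50.4 CPM with IgG), Tuba1a, an alpha tubulin (2600 ± 144 and 3430 ± 229 CPM), Mgarp, a mitochondrial protein induced by low oxygen (1760 ± 160 and 2310 ± 59.7 CPM), and Hpcal1, a calcium sensor (48.1 ± 2.63 and 72.4 ± 3.85 CPM). In none of these 4 did any anti-ANG2 retina reach the lowest IgG retina. Their folds in that fit were 0.785, 0.769, 0.77 and 0.673, with edgeR adjusted p of 0.022, 0.018, 0.022 and 0.016.

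**Figure D4:**
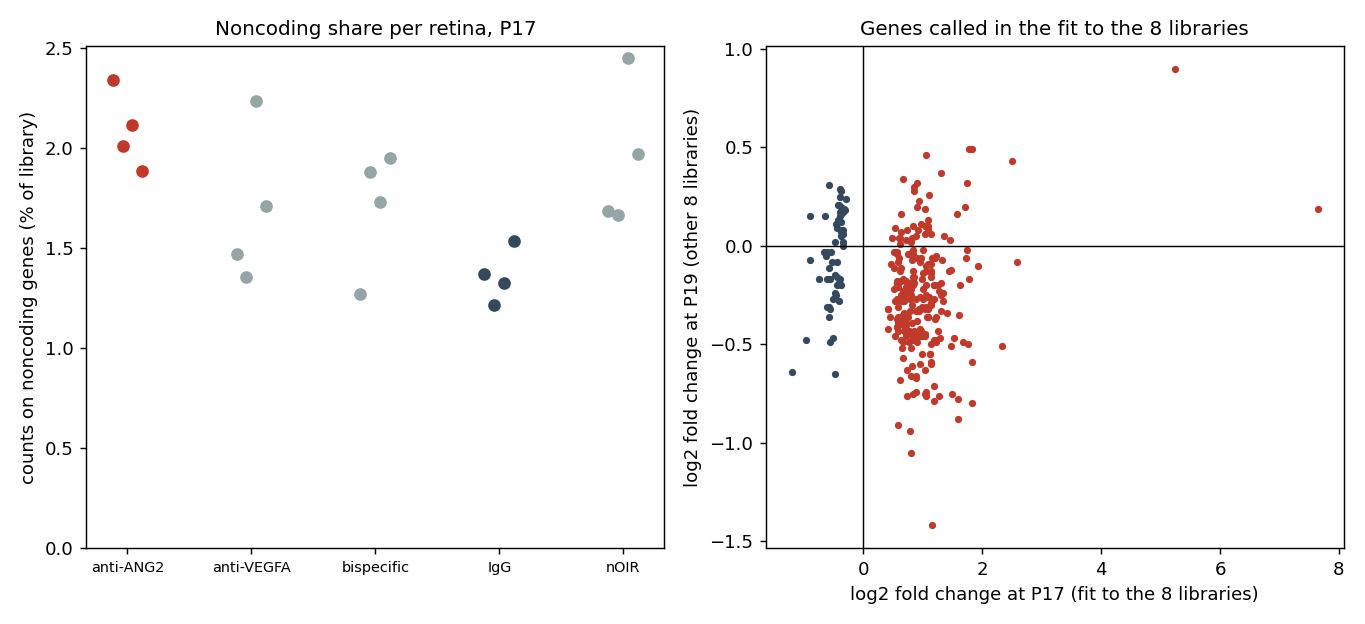
Left, counts on noncoding genes as a percentage of each P17 library, 1 point per retina, from 0; anti-ANG2 retinas (1.89 to 2.34%) do not overlap with IgG retinas (1.22 to 1.54%). Right, log2 fold change of the genes called in the fit to the 8 P17 libraries (red higher, dark lower) against their log2 fold change at P19 in 8 other libraries; 206 of the 247 higher genes are below 0 at P19.

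The P19 retinas, none of which entered that fit, did not repeat the higher calls. Of the 247 genes, 206 had a negative estimate at P19 and 41 a positive one (median −0.27), with 23 lower and 0 higher at an unadjusted p under 0.05, where 5.86% and 6.64% of all genes were. Of the 58 lower genes 30 were negative and 28 positive at P19. The span of a gene moved with the estimate at both ages, and its level at P17, as a description over genes that share the same libraries. Among coding genes of at least 10 CPM the median log2 fold change at P17 was −0.11 for 2186 genes spanning under 10 kb and 0.11 for 388 genes spanning over 300 kb. Of these longest genes 16.5% were higher at an unadjusted p under 0.05, against 1.88% of the shortest. At P19 the same classes ran the other way, from 0.12 for the shortest to −0.28 for the longest. The noncoding share did not overlap between the groups, so it and the antibody cannot be told apart, and the part of gene span in the calls was not tested.

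**Figure D5:**
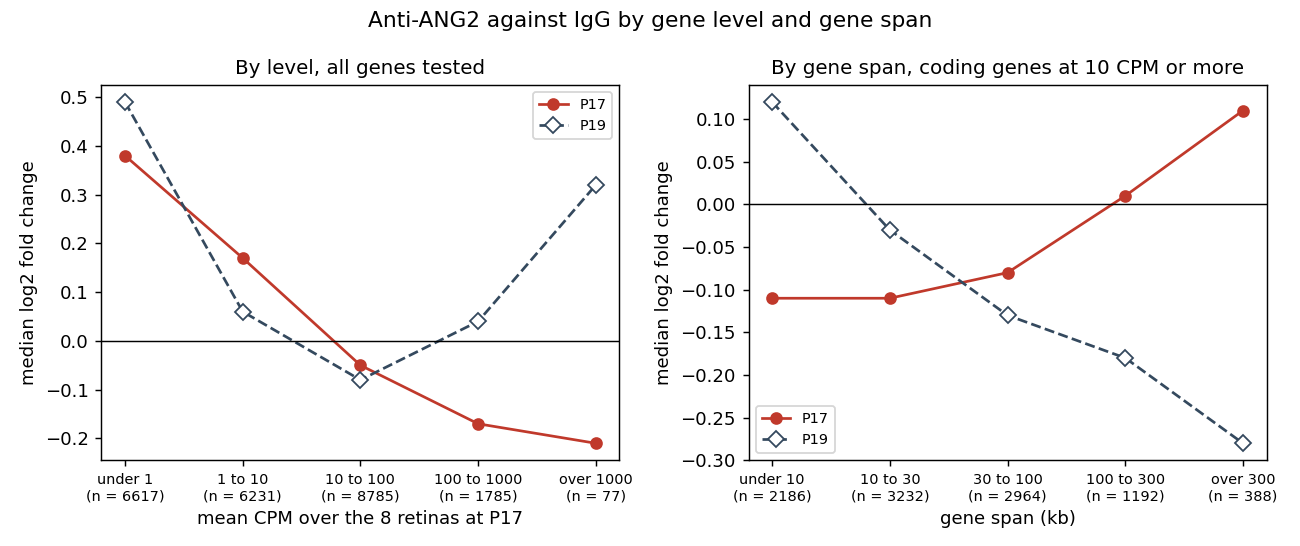
Median log2 fold change of anti-ANG2 over IgG at P17 (filled) and P19 (open) by mean CPM (left, all 23495 genes tested) and by gene span in kb (right, coding genes at 10 CPM or more), with the number of genes under each class. With span the P17 medians run upwards, −0.11 to 0.11, and the P19 medians downwards, 0.12 to −0.28.

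A direct test of whether the anti-ANG2 effect differed between P17 and P19 called 0 genes in edgeR, where 2581 (11%) had p under 0.05 before adjustment (5.81% of all genes positive, 5.18% negative) and the smallest adjusted p was 0.21. For this difference DESeq2 called 149, limma-voom 119, and edgeR 124 without anti-ANG2 replicate 4 of P19. Within P19 alone, edgeR called 23 genes (0.0979%) between anti-ANG2 and IgG. All 4 IgG retinas of P19 carried Y-linked RNA, so sex is not balanced in these contrasts either. The 5 genes with the smallest p for the difference between ages were Procr, Ippk, Cenpc1, Adgrl2 and Tenm4. Procr, the endothelial receptor of activated protein C, averaged 0.215 ± 0.274 CPM with anti-ANG2 and 1.33 ± 1.07 CPM with IgG at P17, and 1.17 CPM with anti-ANG2 and 0 CPM with IgG at P19. These are counts too low for a stable ratio. Ippk, an inositol phosphate kinase, averaged 13.8 ± 2.18 CPM with anti-ANG2 and 6.19 ± 1.36 CPM with IgG at P17, and 4.12 and 11.1 CPM in the same order at P19. Its log2 difference of effects was 2.57 (unadjusted p = 2.8e-05, edgeR adjusted p = 0.21), and the retinas of P17 did not overlap.

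At P17 anti-ANG2 was also set directly against the other 2 antibodies. Against anti-VEGFA edgeR called 0 genes and DESeq2 called 7, and 657 genes (2.8%) had an edgeR p under 0.05 before adjustment, 1.65% of all genes higher and 1.14% lower with anti-ANG2. Against the bispecific antibody edgeR called 0 and DESeq2 19, and 662 (2.82%) had such a p, 1.6% higher and 1.21% lower. The smallest p against anti-VEGFA belonged to Taf8, a subunit of the general transcription factor TFIID, with 21 ± 3.29 CPM with anti-ANG2 and a mean of 35.2 CPM with anti-VEGFA (log2 fold change −0.74, unadjusted p = 9e-05). Xist and Tsix were among the next 4, and the anti-VEGFA retinas carried 0.357 CPM of Xist on average. All 4 anti-VEGFA retinas carried Y-linked RNA and no anti-ANG2 retina did, so in this contrast sex and antibody cannot be told apart. Against the bispecific antibody the first 5 were Arhgap15, the muscle actin Acta1, Fbxw21, Actn3 and Arsi, with Arhgap15 at 12.2 ± 4.11 CPM with anti-ANG2 and 5.1 CPM with the bispecific antibody. Angpt2 averaged 8.66 CPM with anti-ANG2, 9.25 with anti-VEGFA and 9.43 with the bispecific antibody, and Vegfa 228, 230 and 232 CPM. Kdr averaged 86.2 CPM with anti-ANG2 and 120 CPM with anti-VEGFA (log2 fold change −0.47, unadjusted p = 0.04, edgeR adjusted p = 1). Against the bispecific antibody the log2 fold change was −0.69 for Pecam1 and −0.89 for Pgf, each at an unadjusted p = 0.17 by edgeR.

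A final reading took the genes that OIR changed at P19 between IgG and nOIR retinas, libraries that have no part in the P17 contrast. For the 193 genes that rose in OIR at P19, the anti-ANG2 estimate at P17 had a median of −0.12, and 128 (66.3%) were negative, where 48.7% of all genes were. Of these 193 genes 12 (6.22%) were lower and 0 higher at an unadjusted p under 0.05, against 2.84% and 4.8% of all genes. By level, 58.1% of estimates were negative and 3.97% of genes lower at 10 to 100 CPM, and 82.7% and 11.3% at 100 to 1000 CPM. The negative and lower shares of the 193 genes lie between those of these classes. Their share of higher genes, 0%, lies below the 5.81% and 3.64% of the same classes. The levels of the 193 genes were not matched, and the part of level was not tested. The 23 genes that fell in OIR at P19 had a median of −0.05 with 12 negative. These shares describe the direction of estimates, and none of the genes passed the test at P17.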

How the data were processed

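RNA of 40 whole mouse retinas was sequenced, 4 per group. Per the labels' protocols, libraries were made by SMART-Seq and Nextera XT. Per the submitters' processing notes, the tools were STAR 2.7.10a and RSEM 1.3.3 with GRCm38.p4. Which gene annotation they counted on is not stated in these sources. The authors deposited expected counts (RSEM estimates per gene symbol) and TPM. Expected counts were rounded to whole numbers, since 15.7% of those above 0 were not whole. Of 42037 symbols 2036 carry a copy suffix, and reads of near-identical copies may be split among them.

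Tests used edgeR 4.0.16 in R 4.3.3 (filterByExpr, TMM, robust quasi-likelihood F test, all 40 libraries in 1 fit), with Benjamini-Hochberg adjustment over all 23495 genes. Alternatives used DESeq2 1.42.0 and limma 3.58.1; limma was also run on the deposited TPM with a pseudocount of 1 or 0.1. CPM were scaled by TMM and are compared between retinas, not between genes. Named genes were pathway genes, the 8 of smallest p in each direction whose higher group averaged 5 CPM or more (gene models and copies left out), up to 3 per list by smallest p, and the 5 of smallest p in each further contrast; other list members and calls of the 8-library fit were named after their values were seen. Members and lists were chosen with earlier results of these data known. Scripts were tested on simulated counts. Gene positions are from GENCODE M21, which matched 158 of 159 named genes. Some list members are not reported here by name.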

Additional observations from a re-analysis of the deposited data

Results flagged for a closer look

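A Dixon test at 95% was run on the 4 retinas of each group for the genes named, 202 groups in all, and 10 held 1 retina far from the other 3. Chance alone marks about 1 in 20 groups, close to this number. In the anti-ANG2 group these were replicate 2 for Trem2 (16.2 CPM), H2-D1 (32 CPM) and Actn3 (0.325 CPM), replicate 3 for Fbxw21 (0.141 CPM) and replicate 4 for Hpcal1 (44.2 CPM). In the IgG group they were replicate 1 for Pecam1 (6.73 CPM), Aif1 (1.2 CPM) and Esm1 (0.686 CPM), replicate 2 for Cebpd (111 CPM) and replicate 4 for Pcdh9 (183 CPM).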

How the results depend on the processing

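For anti-ANG2 against IgG at P17 the count of genes called was 305 in the fit to the 8 libraries (247 higher, 58 lower), 139 there with the replicate block (134 higher, 5 lower), 79 with limma-voom, 16 with DESeq2 and 15 with pigment epithelium and lens covariates, against 0 in the fit to 40. It remained 0 with DESeq2-type size factors in edgeR, without the filter, with Y-linked, mitochondrial or noncoding covariates, on log2 TPM, and without any single retina. Of the 305 calls, 9 of DESeq2's 16, 71 of limma-voom's 79 and all 15 of the covariate fit were shared. The 8-library count was 79, 152 and 109 without anti-ANG2 replicates 1, 2 and 3 and 110, 147 and 170 without IgG replicates 2, 3 and 4 (79 to 366 over all 8 omissions), was 90 with Xist-carrying retinas only and 82 without the retinas high in crystallins, and was 1 with the noncoding share and 1 with Y-linked counts as covariate. The difference between ages had 149 calls in DESeq2, 119 in limma-voom, 3 with pigment epithelium and lens covariates, 1 on log2(TPM + 1) and 1 on log2(TPM + 0.1), and 0 to 124 without 1 retina. Against anti-VEGFA 6 genes were called in the fit to the groups compared, 6 with the replicate block and 7 by DESeq2; against the bispecific antibody DESeq2 called 19. The cause of these differences was not tested. Within the 8 libraries neither the noncoding share nor the Y-linked counts overlapped between the groups. Replicate numbers did not pair the retinas: same-numbered anti-ANG2 and IgG retinas correlated at 0.09, −0.05, 0.01 and −0.07 over genes after removing group means. Among 159 named genes, 3217 single-gene values kept direction and side of the threshold, 92 passed it and 173 moved by more than the replicate spread; 29 genes changed sign under at least 1 alternative, none of them while called. Genes under a few CPM, the angiopoietin receptors included, are limited by depth.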
